A study of Mus musculus with 1 sample.

Results

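Anti-Müllerian hormone (AMH) and its receptors were followed in the cells of 1 control library of fetal mouse testes. The 4 genes are *Amh*, which codes for the hormone, *Amhr2*, which codes for its own type II receptor, and *Acvr1* and *Bmpr1a*, which code for type I receptors that AMH shares with bone morphogenetic proteins. They were chosen by symbol, and all 4 were found among the 22631 rows of the count table. The label gives the genotype of the sample as WT and its age as E14.5, while the description of the series speaks of E13.5 and E14.5. The methods describe the controls as fetuses with the conditional *Nr5a1* L2/L2 allele and no Cre transgene, on a mixed C57BL/6 and 129/SvPass background, with no treatment. According to the label the cells came from 12 controls, without saying whether animals or testes were counted. They were pooled, so that animals cannot be told apart, and the mutant cells were not analysed here.

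AMH is a homodimeric ligand of the TGF-beta superfamily. It is made by Sertoli cells from soon after sex determination and makes the Müllerian ducts, the precursors of oviduct and uterus, regress in the male fetus. The prohormone is cleaved by proprotein convertases, the mature part binds AMHR2, and a type I receptor is recruited that phosphorylates SMAD1, SMAD5 and SMAD9, which act with SMAD4 on target genes such as the ID genes. SOX9, SOX8, NR5A1, GATA4 and WT1 are known to drive *Amh* transcription in Sertoli cells. In the male, AMHR2 is best known from the mesenchyme around the Müllerian duct and from Sertoli and Leydig cells.

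After filtering, 3814 cells with a median of 12032.5 UMIs (unique molecular identifiers, 1 for each captured RNA molecule) remained of 5421 barcodes. Clustering without the 4 genes gave 15 clusters, and marker genes placed 13 of them in 10 classes, of which the Sertoli-like class was a single cluster of 858 cells. All 10 Sertoli markers had a higher level in it than in each of the other named classes, but the same markers had named it. Clusters 5 and 11, with 203 and 65 cells, stayed unnamed. In cluster 11 *Aard* and *Cst9* stood higher than in the Sertoli-like class, while *Ptgds*, *Dhh* and *Sox9* stood lower. No cluster was named as rete testis or duct epithelium, and *Wnt7a*, a gene of the Müllerian duct epithelium, had 0 UMIs. Of the rete testis markers, *Krt7*, *Krt8* and *Krt18* were found in 72.2%, 43.7% and 66.5% of coelomic epithelium-like cells. In Sertoli-like cells these shares were 15.4%, 63.4% and 53.4%. *Pax8* and *Aldh1a3* were found in 1.90% and 1.27% of coelomic epithelium-like cells and in 1.52% and 1.63% of Sertoli-like cells. Whether the Sertoli-like class held rete testis cells was not tested. The library is therefore 1 sample, and no test between groups of cells was made. Levels are given as CPM, the UMIs of a gene scaled to 1000000 UMIs of all genes in the class, and the 95% intervals of levels (exact Poisson), of shares (exact binomial) and of ratios cover counting error only.

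*Amh* (ENSMUSG00000035262) lies on the plus strand of chromosome 10, from 80805243 to 80807648 of GRCm38, in 5 exons. *Sf3a2*, a splicing factor gene, ends 318 bases upstream on the same strand, and *Jsrp1* ends 847 bases downstream on the other strand. *Amhr2* (ENSMUSG00000023047) lies on the plus strand of chromosome 15, from 102445367 to 102454633, *Acvr1* (ENSMUSG00000026836) on the minus strand of chromosome 2, from 58388644 to 58567157, and *Bmpr1a* (ENSMUSG00000021796) on the minus strand of chromosome 14, from 34410734 to 34503341. *Gm17409* overlaps *Acvr1* by 962 bases and *Gm17110* overlaps *Bmpr1a* by 970 bases, each on the opposite strand. Whether strand was used in counting is not given in the sources used here.

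The RefSeq promoter table (GRCm38.p6), which gives 250 bases before and 50 bases after each gene start, matched 3 of the 4 genes. The promoters of *Amhr2* and *Bmpr1a* are shown because the levels of both genes differed in how far they were confined to Sertoli-like cells. They lie at chr15:102445117-102445416 on the plus strand and at chr14:34502497-34502796 on the minus strand. The windows of *Bmpr1a* and *Acvr1* lie inside the gene spans given above, which come from GENCODE, so their gene starts differ between the sources. Capitals mark matches, on either strand, to the motif CAAGGTCA of NR5A1 and to GATAA of the GATA factors.
*Amhr2*: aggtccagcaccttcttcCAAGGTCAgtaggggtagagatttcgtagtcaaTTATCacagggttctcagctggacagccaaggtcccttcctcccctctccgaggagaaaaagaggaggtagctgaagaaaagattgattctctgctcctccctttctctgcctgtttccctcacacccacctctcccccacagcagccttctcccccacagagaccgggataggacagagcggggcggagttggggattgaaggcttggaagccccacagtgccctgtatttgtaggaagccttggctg
*Bmpr1a*: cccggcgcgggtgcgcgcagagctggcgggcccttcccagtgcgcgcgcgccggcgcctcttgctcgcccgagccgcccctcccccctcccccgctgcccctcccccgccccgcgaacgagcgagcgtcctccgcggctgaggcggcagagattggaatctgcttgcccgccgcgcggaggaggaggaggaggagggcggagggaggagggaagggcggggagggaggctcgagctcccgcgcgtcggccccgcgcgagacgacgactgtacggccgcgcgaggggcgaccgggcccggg
The *Amhr2* promoter held CAAGGTCA once, starting 232 bases before the gene start, a motif found in 1.56% of all 32851 promoters of the table. The shorter motif AGGTCA, which lies inside it, was found in 16.3% of promoters. GATAA was found once, on the other strand, starting 199 bases before the gene start, and in 25.4% of all promoters. The motif ACAAT of SOX factors, found in 31.0% of promoters, had no match in these letters, and none of the 4 motifs matched the promoter of *Acvr1* or *Bmpr1a*. The *Amhr2* promoter held 5 CpG dinucleotides, the *Acvr1* promoter 51 and the *Bmpr1a* promoter 48, against a median of 7. Of all promoters, 99.3% held fewer than that of *Acvr1*, and 98.8% held fewer than that of *Bmpr1a*. A match is a description of these letters and does not show that a factor binds there.

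*Amh* RNA lay almost entirely in Sertoli-like cells. Of the 26043 *Amh* UMIs in the kept cells, 97.8% were in this class, which held 23.6% of all UMIs. The level there was 1978 CPM (95% interval 1954 to 2003), and a UMI was found in 98.8% of cells. In all other cells the level was 13.8 CPM (12.7 to 14.98). These include the unnamed cluster 11, whose nearest class was Sertoli-like and whose 65 cells carried 222 of their 575 *Amh* UMIs. Thinned to 5000 UMIs per cell, so that depth was the same, 98.6% of Sertoli-like cells (97.5 to 99.3) and 3.79% of the other cells (3.11 to 4.56) held an *Amh* UMI.

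**Figure D1:**
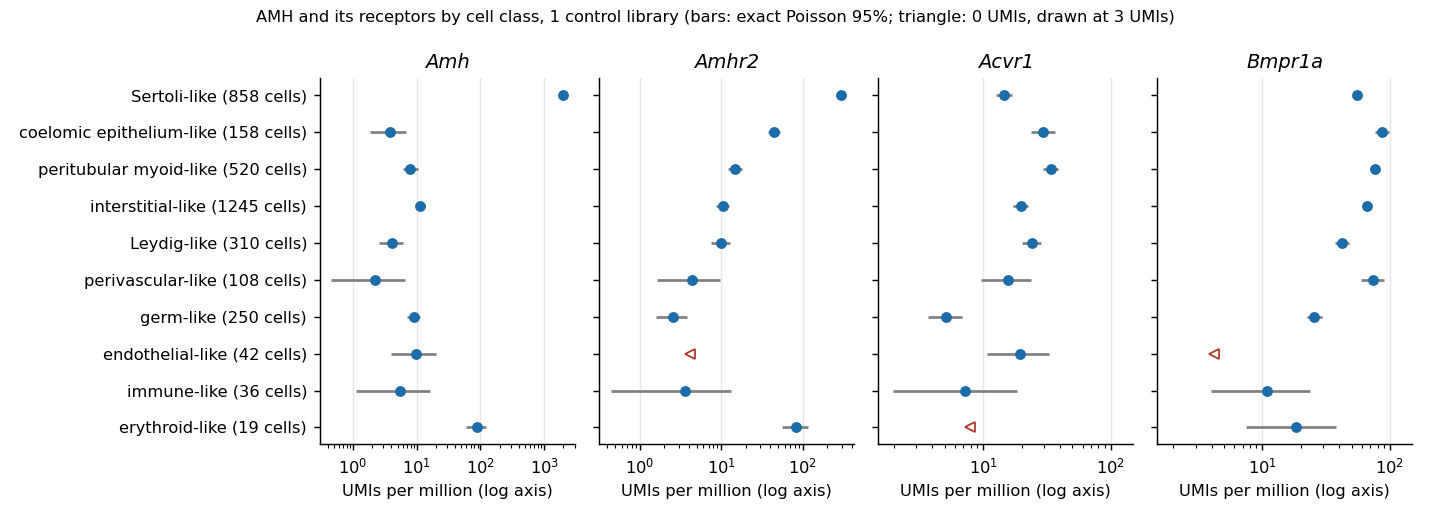
Level of each gene (CPM, log axis, with its own range for *Amh* and *Amhr2*) in the 10 named cell classes of the control library. Points are levels and bars exact Poisson 95% intervals, and open triangles are classes with 0 UMIs, drawn at 3 UMIs. *Amh* and *Amhr2* stand highest in Sertoli-like cells, at 1978 and 298 CPM, while *Acvr1* and *Bmpr1a* are spread over many classes.

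Outside the Sertoli-like class, *Amh* was at a low level in the larger classes. It was 11.4 CPM (9.58 to 13.6) in interstitial-like, 9.02 (7.13 to 11.3) in germ-like and 7.99 (6.02 to 10.4) in peritubular myoid-like cells. These neighbours had overlapping intervals. Levels of 4.08 CPM (2.58 to 6.12) in Leydig-like and 3.74 CPM (1.87 to 6.70) in coelomic epithelium-like cells followed. Their intervals lay below those of interstitial-like and germ-like cells but overlapped that of peritubular myoid-like cells. After thinning, a UMI was found in 4.26% of interstitial-like, 4.51% of germ-like, 3.14% of peritubular myoid-like and 2.28% of Leydig-like cells, with overlapping intervals for germ-like (2.27 to 7.92) and Leydig-like cells (0.922 to 4.64). Germ cells are not a known source of AMH, and shares of this size are not read as expression. The part of free RNA in them was not tested. A few cells held much of this signal. In germ-like cells, 2 of 250 cells carried 34 of the 78 *Amh* UMIs, and in interstitial-like cells 11 of 1245 cells carried 49 of 132. Without cells of 3 or more *Amh* UMIs, the level was 5.14 CPM in germ-like and 7.28 in interstitial-like cells. The low levels moved with the removal of doublets, droplets that hold more than 1 cell. With no doublets removed, *Amh* was at 34.6 CPM in germ-like, 18.5 in Leydig-like, 17.7 in peritubular myoid-like and 12.3 in coelomic epithelium-like cells, and with the rate doubled it was at 4.98 CPM in germ-like cells.

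Other RNAs that are abundant in Sertoli cells were also found outside them, to an extent that differed by gene and class. Relative to its own level in Sertoli-like cells, *Amh* stood at 0.579% in interstitial-like cells, *Ptgds* (prostaglandin D2 synthase) at 0.764% and *Cst9* (a cystatin) at 0.698%. In germ-like cells these values were 0.456%, 0.571% and 0.569%. *Aard* and *Sox9* stood higher, at 1.37% and 6.40% in interstitial-like and at 0.701% and 1.14% in germ-like cells. In Leydig-like cells *Ptgds* was at 1.003%, *Cst9* at 0.337% and *Amh* at 0.206%. The erythroid-like class, of only 19 cells, had 87.1 CPM of *Amh* and 81.8 CPM of *Amhr2*, and also 158 CPM of *Ptgds* and 222 CPM of *Cst9*. Here 3 cells carried 30 of the 33 *Amh* UMIs.

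**Figure D2:**
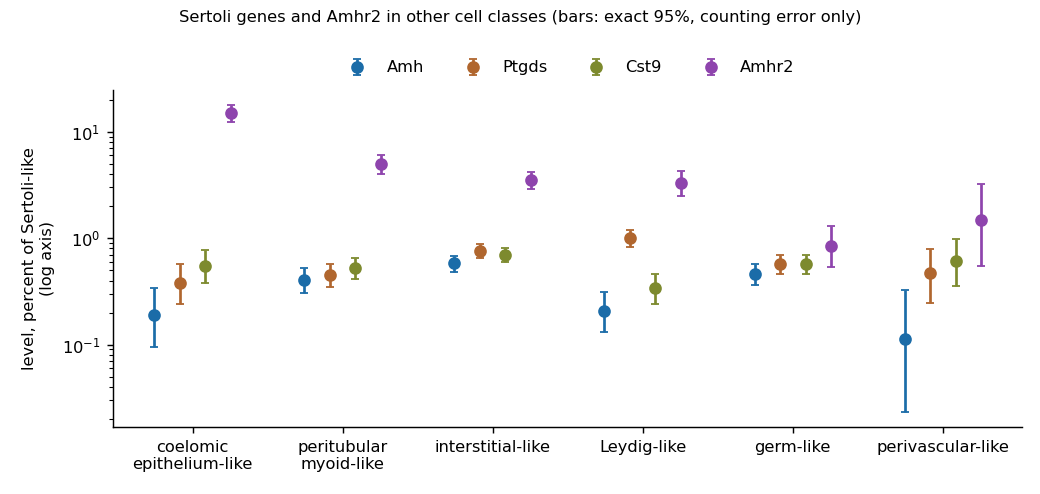
Level of *Amh*, *Ptgds*, *Cst9* and *Amhr2* in 6 cell classes, as a percentage of the level of the same gene in Sertoli-like cells (log axis). Points are levels and bars 95% intervals of counting error. *Amhr2* reaches 14.9% in coelomic epithelium-like cells, whereas *Amh*, *Ptgds* and *Cst9* stay at or below 1.003% in all 6 classes.

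The amount of *Amh* per Sertoli-like cell varied widely, and most of this spread remained when depth was made equal. As read, cells held a median of 28 *Amh* UMIs, with quartiles of 17 and 38 and a range from 0 to 135. At 5000 UMIs per cell, the 842 Sertoli-like cells deep enough held a median of 9, with quartiles of 6 and 13 and a range from 0 to 48. Of these cells, 323 held 5 to 9 UMIs, 216 held 10 to 14, 51 held 20 or more, and 12 held none. The variance was 3.36 times the mean, where counting error alone gives a variance equal to the mean. Expressed as a coefficient of variation beyond counting error, the spread of *Amh* was 0.467. It was 0.505 for *Aard*, 0.460 for *Ptgds*, 0.418 for *Cst9* and 0.441 for *Sox9*, the transcription factor that drives Sertoli cell fate. Among the other Sertoli markers it ran from 0.231 for *Dhh* and 0.278 for *Trim47* to 0.714 for *Erbb4*, which had 188 UMIs. Among 115 genes of like level, the median was 0.193 and 5 genes were above *Amh*. The distribution had a single peak. *Amh* varied about as much as *Aard*, *Ptgds* and *Cst9*, the Sertoli markers of like level, and more than most genes of its level.

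**Figure D3:**
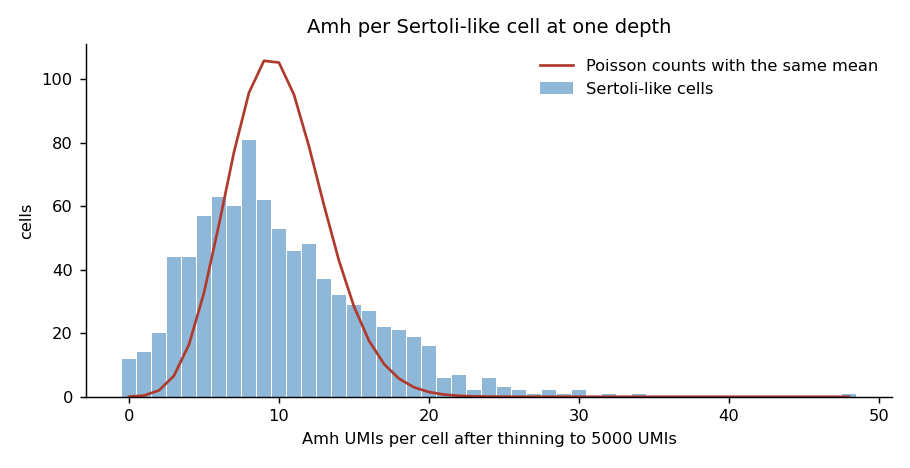
Number of Sertoli-like cells (y axis) with each number of *Amh* UMIs after thinning to 5000 UMIs per cell (x axis, 842 cells). Bars are cells and the line gives Poisson counts with the same mean. The bars form 1 broad peak around the median of 9 UMIs and reach 48, wider than the line.

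The number of *Amh* UMIs rose with depth, while its level rose and then fell. With Sertoli-like cells ordered by total UMIs and cut into 5 equal groups, the median number of *Amh* UMIs per cell was 16, 24, 30, 31 and 37. The level was 1847, 2075, 2110, 2047 and 1845 CPM, lowest at both ends and highest in the middle. The interval of the middle group (2053 to 2168) lay above those of the first (1780 to 1915) and the last (1802 to 1888). These intervals cover counting error only and leave out the spread between cells, 0.467 beyond counting error. Whether the groups differ beyond that spread was not tested. Across the 858 cells, which come from 1 library, Spearman's rho with total UMIs was 0.46 for *Amh* UMIs and 0.05 for *Amh* CPM, given as a description.

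**Figure D4:**
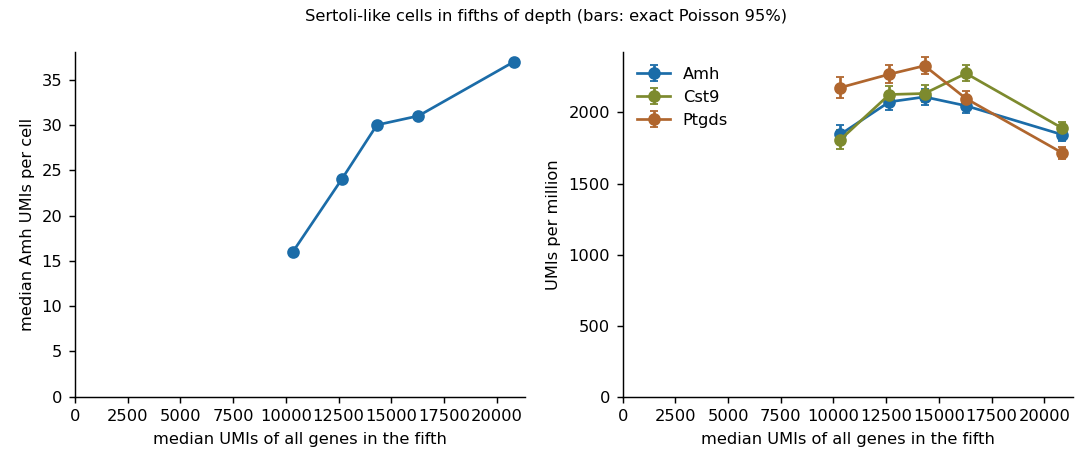
Sertoli-like cells in 5 groups of rising depth (x axis, median UMIs of all genes). The left panel gives the median number of *Amh* UMIs per cell, from 16 to 37, and the right panel the level of *Amh*, *Cst9* and *Ptgds* in CPM with exact Poisson 95% intervals, where *Amh* stays between 1845 and 2110.

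Sertoli-like cells without *Amh* were rare and shallow. No *Amh* UMI was found in 10 of 858 cells, which had a median of 5566 UMIs against 14349.5 in the others. Of these 10 cells, 9 held *Aard*, 8 held *Sox9* and 9 held *Dhh* (desert hedgehog), but only 4 held *Ptgds*, which 99.1% of the other cells held. *Nr2f2*, an interstitial marker, had UMIs in 4 of the 10 cells and in 43 of the 848 others. *Nr2f2* stood at 274 CPM in them and at 3.75 CPM in the others. These genes were picked after their values were seen, and the part of interstitial RNA or of shared droplets in these cells was not tested. The unnamed cluster 11, whose 65 cells had a median of 3116 UMIs and whose nearest class was Sertoli-like, had 880 CPM of *Amh* (768 to 1003) and 139 CPM of *Amhr2* (96.6 to 193).

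*Amh* stayed high in dividing Sertoli-like cells. Phases were called from S and G2/M gene lists on the thinned cells. They placed 392 cells in S or G2/M and 450 in G1, with 68 cells within 0.05 of the limit between both. *Mki67*, a gene of the G2/M list and so part of the call, was at 245 CPM in the former and 4.48 in the latter. *Amh* was at 1900 CPM (1867 to 1933) in S or G2/M cells and at 2072 CPM (2036 to 2109) in G1 cells, a log2 ratio of -0.13 (-0.16 to -0.09). By phase, the level was 2072 CPM in G1, 2111 CPM in S and 1738 CPM in G2/M. Per thinned cell the median was 9, 9 and 8 UMIs, with quartiles of 6 and 14, 7 and 13, and 5 and 12, so that the phases overlapped almost fully from cell to cell. The median log2 ratio over the 8924 genes with enough UMIs was 0.03.

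The lower *Amh* level of dividing cells did not hold at every depth. S or G2/M cells had a median of 16401 UMIs and G1 cells 13279.5. With these cells cut into 3 equal groups by depth, *Amh* in the shallowest group was at 1613 CPM in S or G2/M and 2090 CPM in G1. In the middle group the levels were 1983 and 2178 CPM, and in the deepest group they were 1920 and 1827 CPM, in the other direction. Whether these levels differ beyond the spread between cells was not tested. When phases were called on cells thinned to 3000 UMIs, the log2 ratio of *Amh* was -0.057 (-0.093 to -0.021). *Amhr2*, in contrast, was lower in dividing cells at all 3 depths.

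*Amhr2* differed more between phases than *Amh*. Its level was 259 CPM (247 to 271) in S or G2/M cells and 343 CPM (328 to 358) in G1 cells, a log2 ratio of -0.40 (-0.50 to -0.31). Within the 3 depth groups the log2 ratio was -0.32, -0.47 and -0.35. In S the level was 254 CPM and in G2/M it was 263 CPM, with overlapping intervals (236 to 273 and 247 to 280). After thinning, 81.1% of G1, 70.9% of S and 69.5% of G2/M cells held an *Amhr2* UMI. *Acvr1* was at 16.8 CPM in S or G2/M cells and 11.9 CPM in G1 cells (log2 ratio 0.49, 0.06 to 0.94), and *Bmpr1a* at 56.8 and 52.4 CPM (0.12, -0.10 to 0.34). Of the 4 genes, *Amhr2* alone lay below a log2 ratio of -0.32 (a level of at most 80% of that in G1), as did 11.1% of all genes, and *Acvr1* alone lay above 0.32 (at least 25% higher), as did 18.9% of all genes. The ratio of *Acvr1* rested on 114 UMIs in S or G2/M and 72 in G1 cells. It was 0.30 (-0.13 to 0.75) with the doublet rate doubled, and its interval also held 0 at 5 median absolute deviations, with no outlier filter and with no doublets removed.

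**Figure D5:**
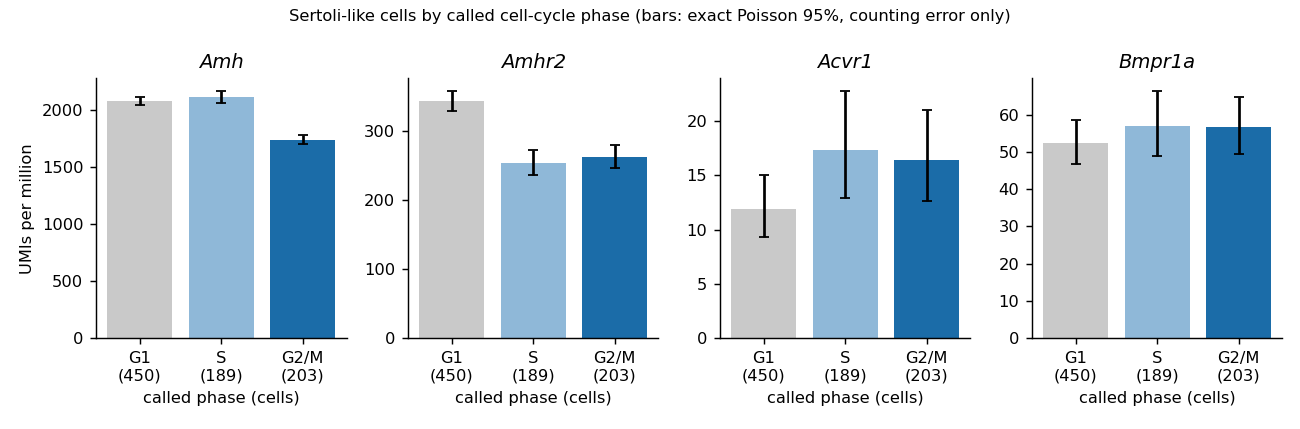
Level of the 4 genes (CPM, y axes from 0) in Sertoli-like cells called G1 (450 cells), S (189) or G2/M (203). Bars are levels and whiskers exact Poisson 95% intervals of counting error. *Amhr2* is highest in G1 at 343 CPM, and *Amh* is lower in G2/M, at 1738 CPM, than in the other phases.

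The 10 Sertoli markers had a median log2 ratio of -0.16 between S or G2/M and G1 cells. Of them, 2 lay below -0.32 and none above 0.32, against 11.1% and 18.9% of all genes. *Aard* had 1952 CPM in S or G2/M and 2962 CPM in G1 cells, and *Sox9* had 296 and 374 CPM. The ratio of *Ptgds* (-0.16, -0.19 to -0.12) overlapped that of *Amh*, and the ratio of *Cst9* (-0.25, -0.29 to -0.22) lay below it.

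*Amhr2* was also mainly a Sertoli gene, but less so than *Amh*. Of its 4354 UMIs in the kept cells, 88.2% (87.2 to 89.1) were in Sertoli-like cells, where the level was 298 CPM (289 to 308). A UMI was found in 95.6% of these cells, and in 76.0% (73.0 to 78.9) after thinning. Cells held a median of 4 *Amhr2* UMIs as read, with quartiles of 2 and 6, and its spread beyond counting error, 0.296, was smaller than that of *Amh*. In 4 groups of cells with rising *Amh*, *Amhr2* was found in 74.3%, 72.1%, 77.0% and 79.8% of cells after thinning, with overlapping intervals between the lowest (67.5 to 80.4) and the highest group (74.2 to 84.7).

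Coelomic epithelium-like cells, the covering layer of the testis, came next among the larger classes. *Amhr2* was at 44.6 CPM (37.3 to 52.9) there, 14.9% of the Sertoli-like level, and 20% of cells (13.9 to 27.3) held a UMI after thinning. Peritubular myoid-like cells, the contractile cells around the cords, had 14.8 CPM (12.1 to 18.0) and 8.06% of cells (5.84 to 10.8). Interstitial-like cells had 10.5 CPM (8.71 to 12.5) and 4.51%, and Leydig-like cells, the steroid-making cells, 9.92 CPM (7.50 to 12.9) and 2.93% (1.35 to 5.49). Germ-like cells, taken as a class that should lack the receptor, had 2.54 CPM (1.59 to 3.85) and 1.23% (0.254 to 3.55). The median depth was 16243.5 UMIs in coelomic epithelium-like and 35868.5 in germ-like cells. After thinning, the shares in Leydig-like and interstitial-like cells (3.40 to 5.86 in the latter) overlapped that in germ-like cells. Those in coelomic epithelium-like and peritubular myoid-like cells lay above it. In level, all of these classes, Leydig-like cells included, lay above germ-like cells. Per cell, however, *Amhr2* had 0.088 UMIs in germ-like and 0.0972 in interstitial-like cells, whose median depth was 8763 UMIs. The values were 0.181 in Leydig-like, 0.196 in peritubular myoid-like and 0.829 in coelomic epithelium-like cells. Whether germ-like cells, being the deepest, give too low a baseline was not tested. The levels of peritubular myoid-like, interstitial-like and Leydig-like cells followed each other with overlapping intervals. Their order was not stable, since with outlier cells removed only beyond 5 median absolute deviations *Amhr2* was at 5.92 CPM in interstitial-like and 13.8 CPM in Leydig-like cells. The germ-like level was 6.69 CPM with no doublets removed and 1.18 CPM with the rate doubled.

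By cluster, the Leydig-like and interstitial-like classes differed in the level of *Amhr2*, but not beyond counting error in the share of cells at equal depth. The Leydig-like cluster 8, led by *Cyp11a1*, *Cyp17a1* and *Star* of steroid synthesis, had 13.6 CPM (9.87 to 18.4), and cluster 6, led by *Nppc* and *Vsnl1*, had 5.22 CPM (2.78 to 8.93). After thinning, 5 of 125 and 4 of 182 of these cells held a UMI, with overlapping intervals. Among interstitial-like clusters, cluster 3, led by *Ntng1*, had 17.2 CPM (12.5 to 23.1), cluster 0 had 9.18 CPM (7.22 to 11.5) and cluster 10 had 2.48 CPM (0.300 to 8.94). The level of cluster 3 came from 44 UMIs in 23 cells, and its share of cells with a UMI after thinning, 5.22% (2.89 to 8.61), was close to the 4.72% (3.38 to 6.40) of cluster 0. No *Amhr2* UMI was found in 42 endothelial-like cells, a count of 0 that allows UMIs in up to 7.14% of them (3 counts), while cells that make the receptor below this depth are not limited by it.

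The proportion of *Amhr2* to *Amh* was not the same in all classes. Sertoli-like cells held 15.1 *Amhr2* UMIs for 100.0 *Amh* UMIs (14.6 to 15.6), and germ-like cells 28.2 (16.7 to 45.8). The proportion was 91.7 (71.0 to 118) in interstitial-like, 185 (132 to 262) in peritubular myoid-like, 243 (147 to 415) in Leydig-like and 1191 (644 to 2444) in coelomic epithelium-like cells. The part that RNA free in the suspension has in these proportions was not tested. In the 372 barcodes with fewer than 200 genes there were 9 *Amh* and 0 *Amhr2* UMIs, too few to give a proportion. Of the UMIs in these barcodes, 46.8% were hemoglobin and 49.2% mitochondrial RNA.

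The type I receptors were not confined to Sertoli-like cells. Of the 3016 *Bmpr1a* UMIs, 23.4% were in Sertoli-like cells, which held 23.6% of all UMIs, and of the 1009 *Acvr1* UMIs 18.6% (16.3 to 21.2). *Bmpr1a* was highest in coelomic epithelium-like cells (86.8 CPM, 76.5 to 98.1), followed by peritubular myoid-like (76.0), perivascular-like (73.3) and interstitial-like cells (66.2), neighbours whose intervals overlapped. It was 54.8 CPM (50.9 to 59.0) in Sertoli-like, 42.2 (37.0 to 47.9) in Leydig-like and 25.5 (22.3 to 29.1) in germ-like cells, 3 steps without overlap. It had 0 UMIs in 42 endothelial-like cells, which allows 4.19 CPM. *Acvr1* was at 33.7 CPM (29.5 to 38.3) in peritubular myoid-like, 29.6 (23.7 to 36.5) in coelomic epithelium-like and 24.1 (20.2 to 28.5) in Leydig-like cells. Sertoli-like cells had 14.6 CPM (12.6 to 16.8), and germ-like cells 5.09 (3.70 to 6.83). Endothelial-like cells held *Acvr1* (19.5 CPM, 10.7 to 32.8) although no *Bmpr1a* or *Amhr2* was found there. Thinned Sertoli-like cells held on average 0.0784 UMIs of *Acvr1* and 0.292 of *Bmpr1a*, too few to measure how the type I receptors varied from cell to cell.

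A set of both receptor types in the same cell was seen mostly in Sertoli-like cells. After thinning, *Amhr2* with *Acvr1* or *Bmpr1a* was found in 22.7% of Sertoli-like cells (19.9 to 25.7), 8.67% of coelomic epithelium-like (4.70 to 14.4), 1.96% of peritubular myoid-like, 1.36% of interstitial-like and 0.977% of Leydig-like cells. It was found in 0 of 244 germ-like cells. Whether the receptors were found together more often than their separate shares would give was not tested. In most Sertoli-like cells the type I receptor was the part not seen, since 53.3% held *Amhr2* without one. In peritubular myoid-like cells 37.1% held a type I receptor without *Amhr2*. At this depth a receptor of low level is often missed in a cell that makes it, and UMIs of free RNA or of a second cell in the droplet can add to these shares, so they count cells with UMIs and not cells that make the receptors.

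The other genes of AMH production and signalling were taken from a list of 29, of which 27 had enough UMIs. Between Sertoli-like and all other cells, 10 were at least 2-fold higher and 2 at least 2-fold lower with 5 CPM added to both sides, against 8.72% and 10.6% of all genes. The median log2 ratio was 0.59 in the list and -0.05 over all genes. *Sox9* and *Sox8* were also among the markers that named the class. The cells were clustered on variable genes other than the 4 members, so these counts describe the class.

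Of 11 regulators of *Amh*, 7 were at least 2-fold higher in Sertoli-like cells. *Sox9* had 333 CPM against 12.4 in all other cells, *Sox8* 72.2 against 1.10 and *Wt1* 273 against 64.3. *Gata4* had 168 against 55.4 CPM, *Dmrt1* 36.3 against 6.82, *Sox10* 21.7 against 0.360 and *Fshr*, the receptor of follicle-stimulating hormone, 8.78 against 0.0720. *Nr5a1*, the nuclear receptor that the study removed in its mutants, had 74.2 CPM in Sertoli-like and 224 CPM in Leydig-like cells. Pearson's r over the 10 classes was taken on log2(CPM + 5). On this scale *Amh* followed *Sox9* (r = 0.91) more closely than *Dmrt1* (0.73), *Wt1* (0.44), *Gata4* (0.36) or *Nr5a1* (0.24). *Amhr2* followed *Sox9* (0.90), *Gata4* (0.69) and *Wt1* (0.65), and *Amh* and *Amhr2* followed each other (0.83). These are descriptions over 10 points of 1 library, and *Sox9* was among the markers that named the Sertoli-like class. *Amh* was at 1978 CPM in that class, 87.1 CPM in the erythroid-like class and at most 11.4 CPM in the others. The order of these values of r therefore rests on few points. On the scale used, differences among the low levels outside Sertoli-like cells also enter r.

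None of the 4 convertases was 2-fold higher or lower. *Furin* had 29.0 CPM in Sertoli-like and 17.3 in other cells, and *Pcsk5* 37.8 and 66.6 CPM. Of the type II receptors shared with other ligands, *Acvr2b* was higher (45.3 against 19.5 CPM), and *Bmpr2* had 60.1 and 52.4 CPM. The type I receptor *Bmpr1b* had only 60 UMIs. Among the SMADs, *Smad5* had 22.4 against 41.8 CPM, *Smad1* 13.7 against 24.1 and *Smad4* 70.2 against 74.7. *Smad7*, an inhibitory SMAD, had 375 CPM against 62.9, and *Smad6*, the other one, 26.0 against 11.3. *Id3* had 582 against 259 CPM, with 1009 CPM in coelomic epithelium-like cells, while *Id4* had 1.71 against 23.6 CPM. In dividing Sertoli-like cells, 5 of 25 list genes lay below a log2 ratio of -0.32 (*Sox9*, *Sox10*, *Nr0b1*, *Pcsk6* and *Smad6*) and 2 above 0.32 (*Dmrt1* and *Smad4*), against 11.1% and 18.9% of all genes.

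The genes most like each member over the 10 classes were found by Pearson's r of log2(CPM + 5) among 11752 genes. For *Amh* these were *Mybphl*, *Nipal1*, *Hamp2*, *Cst11* and *Fstl4* (r from 0.986 to 0.992). For *Amhr2* they were *Lpar2*, *Ctnnal1*, *Lrrc75b*, *Bex2* and *Naprt* (0.930 to 0.963). *Chchd1* and *Mettl23* led for *Acvr1* (0.977 and 0.972), and *Epb41l1* and *Rab33b* for *Bmpr1a* (0.948 and 0.942). The 5 genes nearest to *Amh* and the 5 nearest to *Amhr2* had their highest level in Sertoli-like cells, and those of the type I receptors in several classes. Since these genes were picked by their correlation with the members over 10 points, their highest class is not a separate result. *Jsrp1*, the gene downstream of *Amh*, had 80.4 CPM in Sertoli-like and 7.30 in all other cells, and *Sf3a2*, the gene upstream, 43.4 and 31.3 CPM.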

How the data were processed

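Testis cells of pooled controls were captured with a 10x Chromium single-cell kit, and 1 library was used here. The deposited values are UMI counts of each gene in each barcode, made by the authors with Cell Ranger on mm10 to which YFP had been added, and not normalized (the processing notes list versions 3.0.2 and 3.1.0, and the methods name a later one). The table holds 72595083 UMIs in 5421 barcodes.

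Barcodes with at least 200 genes were kept, 204 doublets (4.04%, nearest neighbours of artificial doublets) and 1031 cells beyond 3 median absolute deviations were removed, and 3814 cells with 2260 to 53807 UMIs remained. Cells were clustered with Seurat 5.3.0 and sctransform 0.4.2 in R 4.3.3 (30 components, resolution 0.8). The 3000 variable genes were used less the 2 members found among them. Cycle scores and the share of mitochondrial UMIs were regressed out. A cluster took the class whose markers had the highest mean log2 ratio, if this was at least 1 and 3 markers were each seen in 25% of cells; a shallow cluster with no own marker among its 10 leading genes stayed unnamed. Phases were called with scanpy 1.11.5 on cells thinned to 5000 UMIs, which left out 16 Sertoli-like cells. Genes were counted against the background of all genes with at least 100 UMIs in the comparison. Scripts were tested on simulated data. Levels, intervals and doublet calls were computed with scipy 1.17.1, scikit-learn 1.9.0, pandas 2.3.3 and numpy 2.4.6 in Python 3.11.15. Alternatives of the filters, the doublet rate, the clustering and the phase calls were tried.

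With 1 library there were no replicates and no tests. The members, the lists of genes and markers, and the rules for naming genes (the members, the pathway list by role, the Sertoli markers, the neighbours of *Amh* and the 5 genes nearest to each member) were chosen with earlier results of these data known. Positions came from GENCODE vM21 (GRCm38, which is mm10).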

Additional observations from a re-analysis of the deposited data

Results flagged for a closer look

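Barcodes with fewer than 200 genes entered no comparison, and they held 9 *Amh* UMIs, more than the 3 that a count of 0 allows. The 9 UMIs lay in 9 of 372 barcodes, 1 in each, at 6.38 CPM (95% interval 2.92 to 12.1). Of the UMIs in these barcodes, 46.8% were hemoglobin RNA and 49.2% mitochondrial RNA. *Ptgds* had 10, *Cst9* 12 and *Aard* 24 UMIs there, *Acvr1* and *Bmpr1a* had 1 each, and *Amhr2* had 0.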

How the results depend on the processing

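Results were recomputed under 14 alternatives, of which 13 were set out at the start and 1, joining the unnamed cluster 11 to the Sertoli-like class, was chosen after seeing the data. The log2 ratios of the members between S or G2/M and G1 cells kept their sign under every alternative. Changes in the order of classes were not counted. The share of *Amh* UMIs in Sertoli-like cells (97.8%) was 96.9% with outliers removed beyond 5 median absolute deviations, 98.1% with no outlier filter, 95.2% with no doublets removed, 98.2% with the doublet rate doubled, 98.1% with log-normalized counts for clustering, 95.7% with each cell classed by itself and 98.6% with cluster 11 joined. The share of *Amhr2* UMIs in these cells (88.2%) was 86.3% at 5 deviations, 83.9% with no doublets removed, 90.3% with the rate doubled and 86.5% with each cell classed by itself. The *Amh* level (1978 CPM) was 1951 CPM with no outlier filter and 1935 CPM with no doublets removed. The log2 ratio of *Amh* in S or G2/M over G1 cells (-0.13) was -0.057 on cells thinned to 3000 UMIs and -0.25 for G2/M alone. These values lay outside the counting interval of the value as reported, and the cause was not tested. Of 337 values of 32 other results, 305 stayed inside the interval used and 32 moved, among them the levels of *Amh* and *Amhr2* in interstitial-like and germ-like cells. For the median of *Amh* UMIs at equal depth, this interval was not one of counting error. It reached 1 standard deviation over cells to either side (3.22 to 14.8). All 11 values lay inside it, also the 5 UMIs found at 3000 UMIs per cell. Leaving out a replicate and pairing were not possible, because there was 1 library. Depth limits the type I receptors most, since at 5000 UMIs per cell few cells hold a UMI of *Acvr1*.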

Other observations

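No cluster was named as epithelium of the Müllerian or mesonephric ducts, so that the level of *Amhr2* in such cells was not measured. The marker list is one of duct epithelium and could not show the mesenchyme around the Müllerian duct. Of the duct markers, *Wnt7a* had 0 UMIs and *Pax2* had 47 UMIs in 44 of 3814 cells. *Epcam* (2011 UMIs in 514 cells), *Lhx1* (301 in 118) and *Cdh1* (224 in 143) were highest in germ-like cells, at 176, 34.4 and 25.3 CPM. In Sertoli-like cells *Epcam* was at 24.9 CPM and *Pax2* at 3.34 CPM. In all, 65 cells held 3 or more duct markers. Such markers were also found in germ-like and Sertoli-like cells, so this is not a count of duct or rete cells.

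Of the 19 erythroid-like cells, 6 held *Amh*, 7 held *Amhr2* and 4 held both, and 3 cells carried 25 of the 31 *Amhr2* UMIs of this class.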
